A study of Homo sapiens with 25 samples.

Results

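miR-450a and miR-450b are microRNAs (miRNAs) that were introduced with lentiviral vectors into A2780, a human cell line established from an ovarian carcinoma. They were followed through the rows that carry their names. These are 2 of the 1410 rows of the table of mature miRNAs (miR-450a and miR-450b) and 3 of the 934 rows of the table of precursors (hsa-mir-450a-1, hsa-mir-450a-2 and hsa-mir-450b). Small RNA was sequenced from A2780 cells with a lentivirus for the primary transcript pri-miR-450a, from A2780 cells with a lentivirus for pri-miR-450b, and from A2780 cells with an empty lentivirus vector, with 3 libraries per group and 9 in all. These are called 450a cells, 450b cells and control cells. The depth of the libraries is unknown, since the tables hold shares of reads. All 3 groups therefore carry a lentiviral vector, and no untransduced cells were among these libraries. The labels do not say which of the 2 miR-450a gene copies the vector holds, what promoter drives it, or whether a group is 1 transduction or several.

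A miRNA is cut out of a hairpin in its primary transcript, first by Drosha in the nucleus and then by Dicer in the cytoplasm. This leaves a duplex of 2 arms, of which an Argonaute protein keeps mainly the main arm, while the lesser or passenger arm, marked with a star in these tables, is mostly degraded. The seed, bases 2 to 8 of the mature strand, pairs with target mRNAs and largely decides which of them are repressed. miR-450a and miR-450b belong to an X-linked cluster with miR-542, miR-503 and miR-424, and the series title names miR-450a as a tumour suppressor in ovarian cancer.

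The sequences are shown because the main arms of miR-450a and miR-450b are close relatives, because only the starred arms tell the 2 miR-450a gene copies apart, and because the hairpins are what the vectors add. RefSeq (GRCh38.p14) held all 5 mature arms. The unstarred rows were matched by name to the 5p arms and the starred rows to the 3p arms, and capitals mark the seed.
miR-450a (miR-450a-5p, made by both gene copies): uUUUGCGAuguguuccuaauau
miR-450b (miR-450b-5p): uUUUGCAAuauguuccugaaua
miR-450a-1* (miR-450a-1-3p): aUUGGGAAcauuuugcauguau
miR-450a-2* (miR-450a-2-3p): aUUGGGGAcauuuugcauucau
miR-450b* (miR-450b-3p): uUGGGAUCauuuugcauccaua
In the hairpins of MIR450A1 (chrX:134540341-134540431, minus strand) and MIR450B (chrX:134540185-134540262, minus strand), capitals mark the main arm.
mir-450a-1: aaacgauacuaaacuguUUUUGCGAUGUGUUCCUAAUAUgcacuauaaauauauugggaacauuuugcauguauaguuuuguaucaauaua
mir-450b: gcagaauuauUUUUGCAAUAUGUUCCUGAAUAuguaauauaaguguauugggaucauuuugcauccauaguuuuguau

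The main arms of miR-450a and miR-450b share 16 of 22 bases. Counted from 1 at the 5′ end, with the base of miR-450a first, they differ by G7A, G10A, A18G, U20A, A21U and U22A. G7A lies in the seed, so the 2 miRNAs have different seeds, UUUGCGA and UUUGCAA. No other name among the 2370 mature miRNAs of the RefSeq table carried either seed. miR-507, miR-557 and miR-3680-3p share bases 2 to 7 with miR-450b, and none shares them with miR-450a. The starred arms of the 2 miR-450a copies share 19 of 22 bases and differ by A7G, G19U and U20C, with the base of miR-450a-1* first. A7G is in the seed. All 3 starred arms contain the run cauuuugcau, and miR-450b* has the seed of miR-769-3p. The main arm of miR-450a is identical in MIR450A1 (chrX:134540393-134540414) and MIR450A2 (chrX:134540564-134540585), whose copies start 171 bases apart. The MIR450B and MIR450A1 hairpins are 78 bases apart. In the gene table MIR450B, MIR450A1, MIR450A2, MIR542, MIR503 and MIR424 follow each other on the X chromosome. The 3 miR-450 genes overlap no other annotated gene there, whereas MIR503 and MIR424 overlap the long noncoding RNA gene MIR503HG.

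The 450a libraries stood apart from the others in many rows outside the cluster. Across 406 rows they correlated with the control libraries at r = 0.65 to 0.74, whereas 450b libraries did so at 0.89 to 0.96. Values are reads per 1000000 miRNA reads of a library (RPM). Mesenchymal and smooth muscle miRNAs (10 of 10 arms above 0 in each group) summed to 418 to 573 RPM in 450a cells, 205698 to 251407 in 450b cells and 179692 to 258394 in control cells. The 6 arms of miR-199a, miR-199b and miR-214 made up nearly all of this sum in 450b and control cells. They averaged 464 of 501 RPM in 450a cells, 222295 of 223046 in 450b cells and 206747 of 210510 in control cells. The sum therefore says little about miR-143 and miR-145, the other miRNAs of this list. What is left of each mean for these miRNAs was smaller in 450a and in 450b cells than in control cells. Among precursor rows, mir-143 and mir-145 had log2 changes of -6.28 and -4.94 in 450a against control cells. Epithelial miRNAs of the miR-200 family (9 of 10, 8 of 10 and 9 of 10 arms above 0, with miR-429* at 0 in every group and miR-200b* at 0 in 450b cells) summed to 279.8 to 369.5, 88.7 to 153 and 68.0 to 90.3 RPM in the same order. SV40 miR-S1-3p, a polyomavirus row, lay at 47.8 to 73.4 RPM in 450a cells, and at no more than 0.501 in 450b cells and 0.267 in control cells. No miRNA that defines A2780 was available as a check of the label. The miR-450a vector and these differences cannot be told apart in any comparison that uses those libraries, and the part of these differences in the results was not tested. Summed endothelial (2 of 2 arms above 0 in both), blood (6 of 7 in both) and liver miRNAs (1 of 2 in both) overlapped between 450a and control cells, at 649 to 2226 against 1032 to 1972 RPM, 111 to 294 against 126.3 to 354, and 6.24 to 9.07 against 4.44 to 17.5. Muscle miRNAs did not (5 of 9 arms above 0 in 450a cells, with miR-206 at 0, and 8 of 9 in control cells; 16.2 to 32.1 against 543 to 692 RPM). In 450b cells muscle miRNAs also lay below control cells without overlap (7 of 9 arms above 0, 84.3 to 111 RPM). Their part in the comparison of 450b with control cells was not tested. In the limma fit described below, 14.5% of the 406 mature rows differed in that comparison. Among precursor rows, let-7b had a log2 change of 3.74, mir-629 of -3.68, mir-148a of -2.91 and mir-222 of -2.83. The miR-450b vector and these differences cannot be told apart there either. Neural miRNAs did not overlap between 450a and control cells either (6 of 7 and 7 of 7 arms; 9680 to 12114 against 5436 to 6706 RPM). In 450b cells endothelial (2 of 2 arms), blood (7 of 7), liver (2 of 2) and neural miRNAs (7 of 7) summed to 902 to 1390, 134 to 313, 9.92 to 18.7 and 5105 to 6196 RPM, each overlapping with control cells. The neural sums hide members that differ. Against control cells, the precursor rows mir-9-1, mir-9-2 and mir-9-3 had log2 changes of 3.3 in 450a cells and -1.07 in 450b cells, without overlap. Those of mir-128-1 and mir-128-2 were 0.28 and 0.29 in 450a cells, and -0.07 and -0.09 in 450b cells.

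Each miRNA was highest with the vector named for it, and miR-450a reached a far higher level than miR-450b. miR-450a stood at 8967, 10075 and 20745 RPM in 450a replicates 1, 2 and 3. It stood at 270.2, 504 and 445 RPM in 450b cells and at 317, 405 and 446 RPM in control cells. The 450a libraries were all far above the other 6, and the ranges of the 450b and control libraries overlapped. miR-450a thus averaged 34.1 times its level in control cells with its own vector (13262 ± 6504 against 389 ± 65.8 RPM, SD, n = 3 each). It placed 27, 20 and 10 among the 1033 human rows of the 450a libraries, and 153, 135 and 123 in control cells. In bulk libraries, fewer cells with a miRNA and less of it per cell cannot be told apart.

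miR-450b stood at 547, 850 and 1544 RPM in 450b cells. It stood at 207, 223.2 and 293 RPM in 450a cells and at 71.6, 72.4 and 131 RPM in control cells. The 3 groups did not overlap, with 450b cells highest, 450a cells next and control cells lowest. Its mean with its own vector was 10.7 times that in control cells (980 ± 511 against 91.7 ± 34.2 RPM, SD, n = 3 each), and in 450a cells 2.63 times (241 ± 45.7 RPM). It placed 114, 98 and 77 among human rows with its own vector, and 239, 225 and 197 in control cells. Even so, miR-450b with its own vector had a mean only 2.52 times that of miR-450a in control cells.

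**Figure D1:**
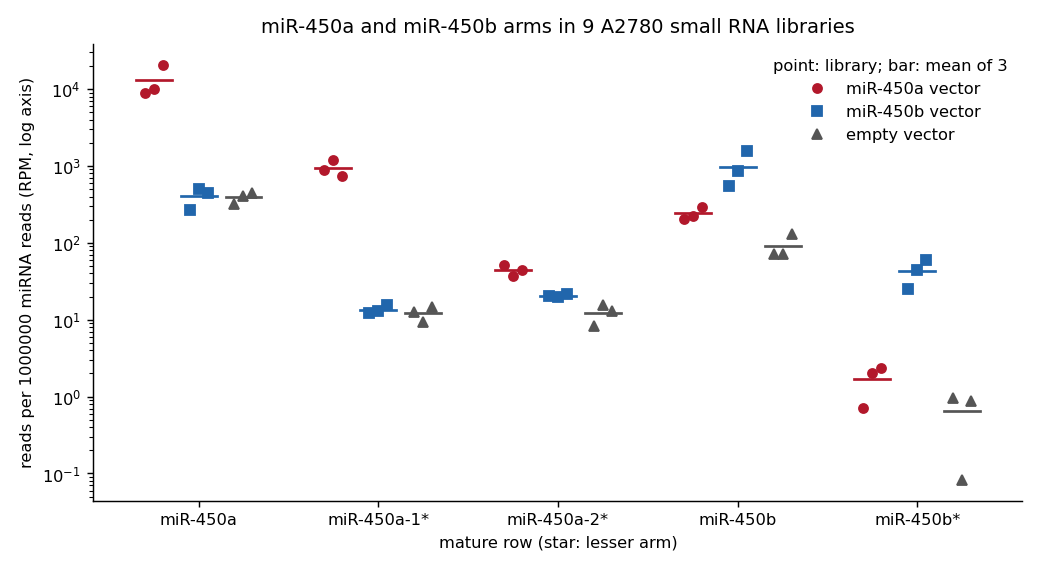
RPM on a log axis for both main arms and the 3 starred arms, with each library as a point and the mean of 3 as a bar, for the miR-450a vector (red circles), miR-450b vector (blue squares) and empty vector (grey triangles). miR-450a and miR-450a-1* are high only in red, at 8967 to 20745 and 746 to 1180 RPM, and miR-450b* is high only in blue, at 25.03 to 59.6 RPM.

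In the order of group means, miR-450a with its own vector took place 17. It lay between miR-10b (15830 ± 2314 RPM), encoded in a HOX gene cluster, and miR-19a (13025 ± 7439), a member of the miR-17-92 cluster, and their ranges overlapped with its own. In control cells it took place 140, between miR-126* (417 ± 99.3 RPM) and miR-140-5p (385 ± 189.5), and in 450b cells place 127, between miR-126* and miR-550-3p. miR-450b with its own vector took place 94, between miR-106a (984 ± 227) and miR-675* (895 ± 68.7), which is made from H19. It took place 170 in 450a cells, between miR-551b and miR-590-5p, and place 225 in control cells, between miR-455-5p and miR-103-2*. At each of these 6 places the ranges of the libraries of both neighbours overlapped with those of the member, so the order there is not resolved by the spread.

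The spread between libraries was wide for each miRNA in the cells with its own vector. The SD of log2(RPM + 10) was 0.66 for miR-450a with its own vector and 0.25 in control cells. For miR-450b it was 0.74 with its own vector and 0.45 in control cells. Among the 406 rows tested, 83.5% had a smaller SD than miR-450a in 450a cells, and 94.8% had a smaller SD than miR-450b in 450b cells. A wide spread was not limited to the vector's own miRNA. In 450b cells the SD of miR-450a was 0.46, and 78.6% of rows had a smaller one. In 450a cells that of miR-450b was 0.25, with 32.8% of rows smaller. Replicate 3 was the highest for the vector's own miRNA in both groups. It was also the highest for miR-450b in 450a cells and for both miRNAs in control cells, whereas miR-450a in 450b cells was highest in replicate 2.

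limma, fitted to log2(RPM + 10) of all 9 libraries and adjusted over the 406 mature rows that averaged 10 RPM or more, gave the size of these differences. In 450a cells miR-450a rose by 4.96 ± 0.37 (log2, SE, 95% interval 4.14 to 5.79, limma adjusted p = 5.36e-07). It held place 11 of 406 when the changes were ordered by the largest rise, behind rows such as miR-196b and miR-10b. In 450b cells miR-450b rose by 3.21 ± 0.39 (95% interval 2.34 to 4.07, limma adjusted p = 0.000135), place 3 in that order, behind let-7b and miR-383. The background differed greatly between the comparisons. In 450a cells, 36.9% of all 406 rows were called higher than in control cells, and 2 of 2 members were. In 37.7% the 450a libraries were all above the control libraries, as they were for both members. In 450b cells, 4.43% were called higher, and 1 of 2 members was. In 10.6% the 450b libraries were all above the control libraries, as for miR-450b. Median-of-ratios scaling sets each library by the median ratio of its rows to their average over libraries. With it the calls in 450a cells numbered 94 higher and 106 lower in place of 150 and 75, and those in 450b cells 26 and 34 in place of 18 and 41. The median log2 change of all rows was -0.02 and -0.01 with that scaling, in place of 0.44 and -0.16. miR-450a was then higher by 4.45 with its own vector, and miR-450b by 3.43 with its own.

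**Figure D2:**
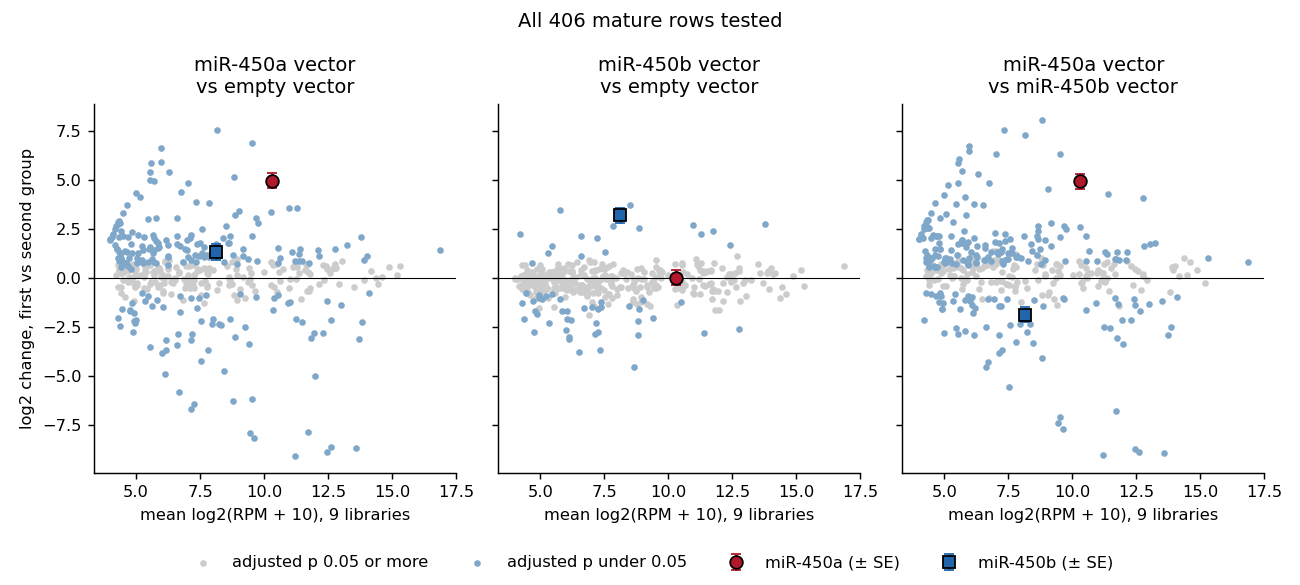
limma log2 change of the first against the second group (y axis) over mean log2(RPM + 10) of the 9 libraries (x axis) for each of the 406 mature rows tested, blue where the adjusted p is under 0.05 and grey otherwise. miR-450a (red circle, ± SE) lies at 4.96, 0.03 and 4.94 and miR-450b (blue square, ± SE) at 1.34, 3.21 and -1.87 in the 3 panels. Many other rows also change, more of them in the outer panels than in the middle panel, where 14.5% of all rows are called.

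Set directly against each other, the vectors gave opposite differences. miR-450a was higher in 450a cells than in 450b cells by 4.94 ± 0.37 (limma adjusted p = 4.85e-07), where 41.9% of all rows were called higher and 46.6% had all 450a above all 450b libraries. miR-450b was lower by 1.87 in that comparison (log2 change -1.87 ± 0.39, limma adjusted p = 0.00178), where 18.5% of all rows were called lower and 22.4% had all 450a below all 450b libraries. With median-of-ratios scaling 83 rows were higher and 108 lower, in place of 170 and 75. The 3 comparisons share libraries, so their values are not independent.

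Each vector was also set against the empty vector for the other miRNA. In 450b cells the change of miR-450a was 0.03 ± 0.37 (limma adjusted p = 0.981). Its 95% interval ran from -0.80 to 0.85, so changes of either sign within those bounds remain compatible with these libraries. In 450a cells miR-450b was higher by 1.34 ± 0.39 (limma adjusted p = 0.0132). It no longer passed after median-of-ratios scaling (0.85, limma adjusted p = 0.0885) or without 450a replicate 3 (1.20, limma adjusted p = 0.0535). The p ranged from 0.00294 to 0.0885 over the alternatives run.

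Ratios within a library do not depend on how libraries are scaled, and they placed the groups far apart. miR-450a was 43.3, 45.1 and 70.8 times as abundant as miR-450b in 450a cells. The ratio was 0.494, 0.593 and 0.288 in 450b cells and 4.43, 5.58 and 3.40 in control cells. miR-450a was thus the more abundant of the pair in the 450a and control libraries and the less abundant in 450b cells, with no overlap between the 3 groups. The log2 ratio averaged 5.69 ± 0.39, -1.19 ± 0.54 and 2.13 ± 0.36 in 450a, 450b and control cells, in that order (SD, n = 3 each). Each of the 3 differences had p = 0.1 in a two-sided exact permutation test, the smallest that 3 against 3 allows, and an adjusted p of 0.162 over the 21 such tests run here. No test of this kind can pass 0.05 at this size.

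The same was done against the cluster neighbours, the summed main arms of miR-424, miR-503 and miR-542. miR-424 and miR-503 belong to the wider miR-16 family, known for restraining the cell cycle. miR-450a stood at 2.06, 1.60 and 4.34 times the neighbours in 450a cells. It stood at 0.223, 0.269 and 0.207 times in 450b cells, and at 0.127, 0.277 and 0.216 times in control cells. Its log2 ratio was higher by 3.62 in 450a than in control cells (exact permutation p = 0.1, adjusted p = 0.162), with no overlap, and by 0.24 in 450b cells (exact permutation p = 0.7, adjusted p = 0.817).

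For miR-450b the ratio to the neighbours was 0.0476, 0.0354 and 0.0614 in 450a cells, 0.452, 0.454 and 0.718 in 450b cells, and 0.0287, 0.0496 and 0.0634 in control cells. Only the 450b libraries stood apart. The log2 ratio was higher by 3.56 in 450b than in control cells (exact permutation p = 0.1, adjusted p = 0.162). In 450a cells it averaged -4.41 ± 0.40, against -4.48 ± 0.58 in control cells (SD, n = 3 each, difference 0.06, exact permutation p = 1). The RPM of miR-450b did not overlap between 450a and control cells, whereas its ratio to these neighbours did. In the limma fit 6 of 6 arms of these neighbours were higher in 450a than in control cells, where 36.9% of all rows were. Their median log2 change was 1.13, against 0.44 over all rows. Of these arms, miR-503* averaged 24.6 RPM in 450a cells, 7.10 in 450b cells and 6.85 in control cells. It passed the filter on low values only through 450a cells, so its call is no support. After median-of-ratios scaling, miR-424 (0.51), miR-542 (0.67) and miR-542* (0.64) no longer passed. The call of miR-424 held in 10 of 18 alternatives and that of miR-542 in 12 of 18. Both were also lost with no filter, without 450a replicate 2 or 3 and without control replicate 2. miR-424 was lost as well without 450b replicate 2 and without control replicate 3, and miR-542 without control replicate 1. Without 1 library miR-424 ranged from 0.78 to 1.27 and miR-542 from 0.93 to 1.56. In 450b cells 0 of the 6 were called in either direction, where 14.5% of all rows were called.

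**Figure D3:**
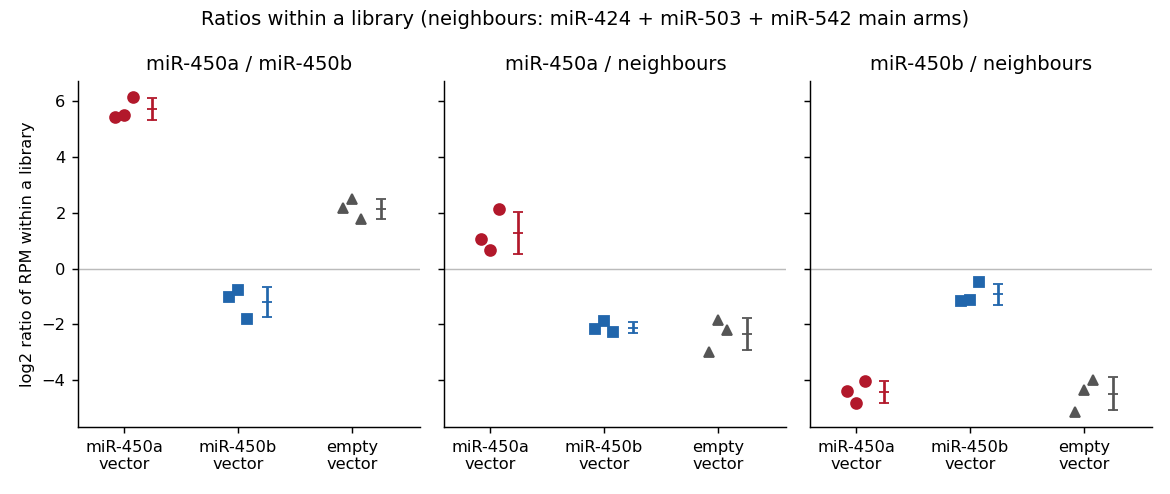
Log2 ratio of RPM within each library (y axis) of miR-450a to miR-450b, of miR-450a to its cluster neighbours and of miR-450b to its cluster neighbours, with points for libraries, and mean ± SD of 3 beside them. miR-450b stands at -0.92 against its neighbours with the miR-450b vector, at -4.41 with the miR-450a vector and at -4.48 with the empty vector.

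Each starred arm belongs to 1 hairpin. miR-450a-1* stood at 881, 1180 and 746 RPM in 450a cells, at 12.2, 12.9 and 15.4 in 450b cells, and at 12.7, 9.45 and 14.7 in control cells. The 450a libraries were all far above the rest. Its mean was 76.3 times that in control cells, and it rose by 5.39 ± 0.24 on the log2(RPM + 10) scale (limma adjusted p = 8.15e-09). In that comparison 36.9% of all 406 rows were called higher, and 37.7% were higher without overlap.

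miR-450a-2* stood at 52.0, 37.0 and 43.9 RPM in 450a cells, at 20.1, 19.8 and 21.9 in 450b cells, and at 8.32, 15.7 and 13.2 in control cells. The 3 groups did not overlap. Of all 406 rows, 37.7% were higher without overlap in 450a than in control cells. The share was 10.6% in 450b against control cells and 46.6% in 450a against 450b cells. miR-450a-2* rose by 1.28 ± 0.20 in 450a cells (limma adjusted p = 0.00018, ratio of means 3.58), where 36.9% of all rows were called higher. The ratios of the neighbouring starred arms miR-542*, miR-503* and miR-424* were 2.44, 3.60 and 3.53. Of these, miR-503* passed the filter on low values only through 450a cells. In 450b cells the change of miR-450a-2* was 0.46 ± 0.20 (limma adjusted p = 0.156).

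miR-450b* stood at 25.03, 44.9 and 59.6 RPM in 450b cells. It was at 0.718, 2.01 and 2.37 RPM in 450a cells and at 0.961, 0.0822 and 0.889 in control cells. The mean in 450b cells was 67.03 times that in control cells, on values so low there that the unknown depth limits the ratio. On the log2(RPM + 10) scale it rose by 2.27 ± 0.22 (limma adjusted p = 4.29e-05), a scale that understates a change from such a level. In that comparison 4.43% of all 406 rows were called higher, and 10.6% were higher without overlap. The miR-450b* row passed the filter on low values only through 450b cells. In 450a cells its change was 0.13 ± 0.22 (limma adjusted p = 0.628).

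The main arm held most reads of both miRNAs in every library. The main arm held 90.6%, 89.2% and 96.3% of miR-450a reads in 450a cells, 89.3%, 93.9% and 92.3% in 450b cells, and 93.8%, 94.2% and 94.1% in control cells. The groups overlapped. In 450a replicate 3 the main arm was at its highest and miR-450a-1* at its lowest of that group. The main arm held 95.6%, 94.98% and 96.3% of miR-450b reads in 450b cells, 99.7%, 99.1% and 99.2% in 450a cells, and 98.7%, 99.9% and 99.3% in control cells. The 450b libraries were all below the others (mean difference from control cells -3.66 points, exact permutation p = 0.1, adjusted p = 0.162). Over the alternatives run this difference ranged from -3.99 to -2.64 points. In 450a and control cells the percents rest on miR-450b* at 0.718 to 2.37 and 0.0822 to 0.961 RPM. The unknown depth limits values so low.

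The 2 gene copies of miR-450a can be told apart only by their starred arms. miR-450a-1* held 94.4%, 97.0% and 94.4% of the starred reads of the 2 copies in 450a cells. It held 37.7%, 39.4% and 41.4% in 450b cells and 60.3%, 37.6% and 52.7% in control cells. The 450a libraries stood clear of the others (exact permutation p = 0.1 against each, adjusted p = 0.162), and the other groups overlapped (exact permutation p = 0.4). miR-450a-1* averaged 936 ± 222 RPM in 450a cells and 12.3 ± 2.63 in control cells, and miR-450a-2* averaged 44.3 ± 7.54 and 12.4 ± 3.73 RPM (SD, n = 3 each).

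The precursor rows are sums of the mature rows and are not separate measurements. In each of the 9 libraries the mir-450b row equalled the sum of its 2 arms, and the rows of mir-450a-1 and mir-450a-2 together equalled the main arm plus both starred arms, to within 0.0001 RPM. After each copy's own starred arm was taken off, copy 1 held 49.8% to 50.04% of the main arm in every library. Reads of the identical main arm were thus counted nearly evenly to both copies.

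mir-450a-1 stood at 5362, 6215 and 11112 RPM in 450a cells, at 147, 265 and 238 in 450b cells, and at 171, 211.5 and 238 in control cells. mir-450a-2 stood at 4539, 5077 and 10423 RPM in 450a cells, at 156, 272 and 244 in 450b cells, and at 167, 218 and 237 in control cells. Both were high in 450a cells alone. They rose by 5.06 ± 0.34 and 4.85 ± 0.36 with that vector (limma adjusted p = 8.72e-08 and 1.65e-07 over 284 precursor rows, of which 43.3% were called higher and 44.7% were higher without overlap).

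mir-450b stood at 572, 895 and 1603 RPM in 450b cells, at 208, 225 and 295 in 450a cells, and at 72.5, 72.5 and 132 in control cells. It rose by 3.26 ± 0.38 in 450b cells (limma adjusted p = 4.02e-05, where 5.63% of precursor rows were called higher and 9.51% were higher without overlap) and by 1.34 ± 0.38 in 450a cells (limma adjusted p = 0.00919). In 450a cells it no longer passed after median-of-ratios scaling (0.74, limma adjusted p = 0.111). In 450b cells mir-450a-1 and mir-450a-2 were at 0.03 ± 0.34 and 0.08 ± 0.36 (limma adjusted p = 0.963 and 0.887). Set against 450b cells, 450a cells had mir-450a-1 and mir-450a-2 higher by 5.03 and 4.77 (limma adjusted p = 7.51e-08 and 1.79e-07), where 49.3% of precursor rows were called higher and 53.9% were higher without overlap. mir-450b differed by -1.92 (limma adjusted p = 0.000862), where 17.6% were called lower and 20.1% were lower without overlap. Median-of-ratios scaling gave 78 higher and 77 lower precursor rows in 450a against control cells in place of 123 and 55, 19 and 27 in 450b against control cells in place of 16 and 33, and 70 and 76 in 450a against 450b cells in place of 140 and 50.

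Copy 1 held 54.2%, 55.04% and 51.6% of the reads of the 2 mir-450a precursor rows in 450a cells, 48.5%, 49.3% and 49.4% in 450b cells, and 50.6%, 49.2% and 50.1% in control cells. The 450a libraries were the highest, though all 9 lay near 50%. The starred arm made up 16.4%, 19.0% and 6.72% of the mir-450a-1 row and 1.15%, 0.728% and 0.421% of the mir-450a-2 row in 450a cells. In control cells it made up 7.39%, 4.47% and 6.17% of mir-450a-1 and 4.98%, 7.18% and 5.56% of mir-450a-2.

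**Figure D4:**
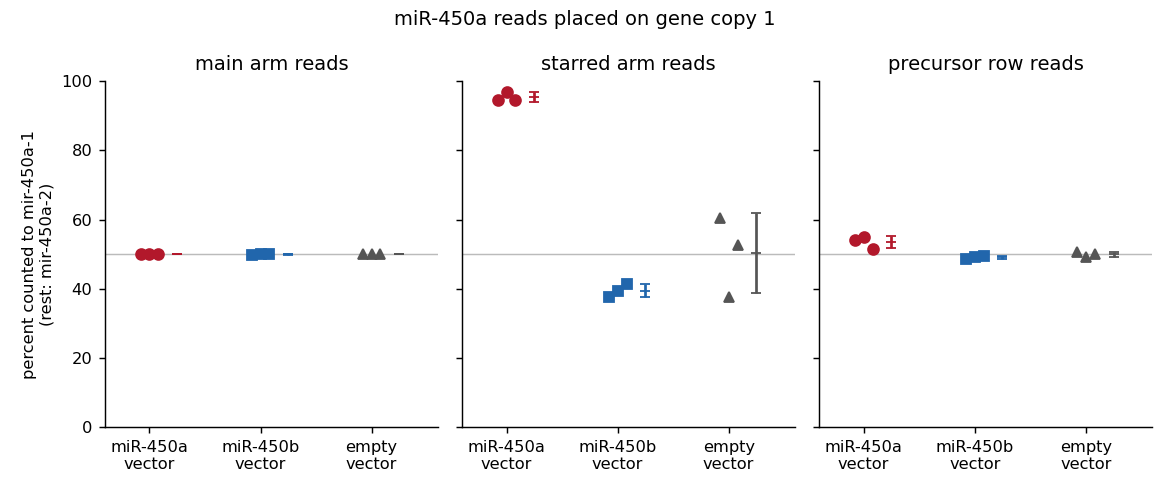
Percent of miR-450a reads counted to gene copy 1, mir-450a-1 (y axis), for the main arm, the starred arms and the precursor rows, with points for libraries and mean ± SD of 3 beside them. The main arm lies at 49.8% to 50.04% in every library, whereas copy 1 holds 94.4% to 97.0% of starred reads with the miR-450a vector and 37.6% to 60.3% in the other libraries.

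Rows with the pattern most like each member were found by the root mean square difference of log2(RPM + 10) over the 9 libraries, each row centred on its own mean. Outside the miR-450 hairpins, 401 rows were compared. miR-181a-1* was nearest to miR-450a, at 0.31, followed by miR-187 (0.48), miR-148a* (0.50), miR-30a* (0.50) and miR-10b* (0.52). miR-450a-1* was at 0.53, and the median over all rows was 2.19. They were chosen for this likeness, so their levels are a description. Of the 5, miR-181a-1*, miR-187, miR-148a* and miR-10b* averaged under 10 RPM in 450b and in control cells and passed the filter on low values only through 450a cells. For example, miR-181a-1* averaged 452 ± 121 RPM there, 5.57 ± 1.11 in 450b cells and 4.28 ± 1.83 in control cells (SD, n = 3 each).

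let-7a* was nearest to miR-450b, at 0.58, followed by miR-383 (0.67), let-7a (0.79), let-7b (0.84) and let-7e (0.86), against a median of 1.65. let-7 miRNAs repress growth-promoting mRNAs such as those of RAS genes. miR-450b* was at 0.58. let-7a* averaged 117 ± 11.9 RPM in 450a cells, 330 ± 76.1 in 450b cells and 70.4 ± 9.46 in control cells, the same order of groups as miR-450b. The rows nearest to miR-450b were also chosen for their likeness, so this shared order is a description. The 9 libraries form 3 groups that differ in many rows.

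**Figure D5:**
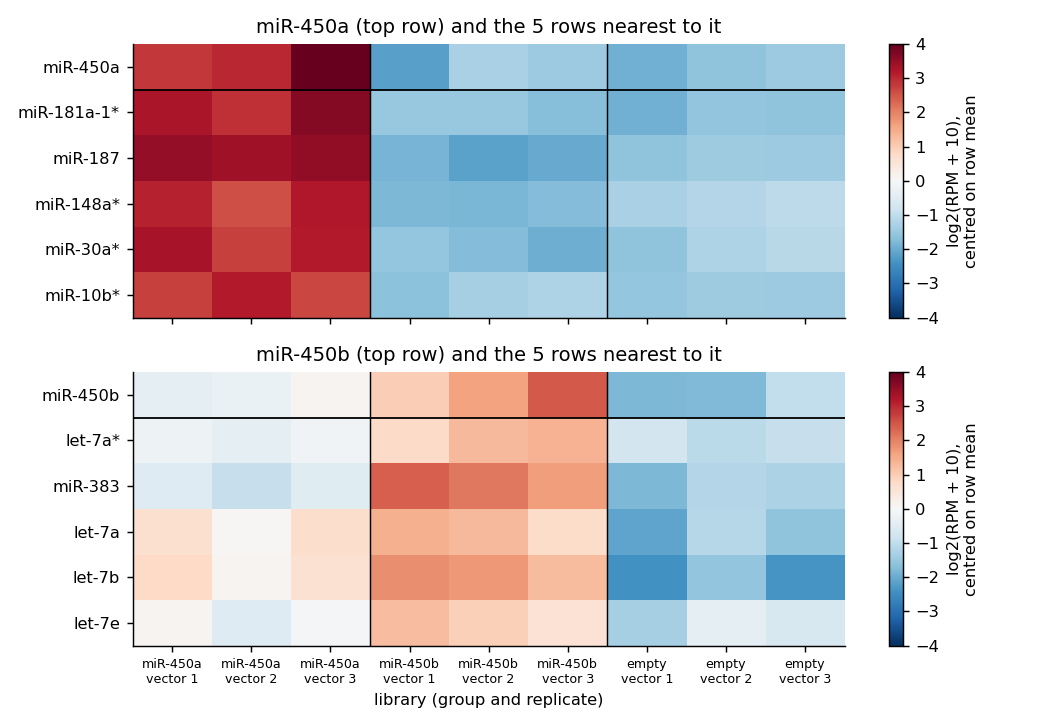
Log2(RPM + 10) of each library (columns, by group and replicate) centred on the mean of the row, for miR-450a and miR-450b (top rows) and the 5 rows nearest to each. Both sets of rows were chosen for their likeness to the member. Those nearest to miR-450a are high in the miR-450a vector libraries. Those nearest to miR-450b average highest with the miR-450b vector and lowest with the empty vector.

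One viral row was chosen after its values had been seen. TAR is a hairpin in the repeat region of the HIV-1 long terminal repeat, which HIV-based lentiviral vectors retain. HIV-1 TAR-3p stood at 275, 155 and 392 RPM in 450a cells, at 115, 134 and 317 in 450b cells, and at 209, 203 and 219 in control cells. The 3 groups overlapped. In 450a cells and in 450b cells the library with the most TAR-3p, replicate 3, was also the one with the most of the vector's own miRNA. With the empty vector, replicate 3 likewise had the most TAR-3p and the most miR-450a (446 RPM) and miR-450b (131 RPM). In 450a cells replicate 2 had less TAR-3p than replicate 1 but more miR-450a (10075 against 8967 RPM). A link between TAR-3p and the vector's miRNA was not tested.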

How the data were processed

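Small RNA was analysed in 9 A2780 libraries, 3 each with the miR-450a, miR-450b and empty vector. Of the same series, 12 mRNA and 4 PAR-CLIP samples were not used. Per the labels' protocols, RNA was extracted with TRIzol and libraries were read as single reads. The deposited values are fractions, named as relative frequencies in the deposited tables, and every column sums to 1. TopHat and Cuffdiff stand in the submitters' processing notes without a role; for the miRNA aligner and its build, nothing is given in the sources used here. Read totals are unknown, so no interval or detection limit was computed from counts.

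Fractions were multiplied by 1000000 (RPM). limma 3.58.1 (R 4.3.3) with an intensity trend was fitted to log2(RPM + 10) of all libraries, over rows whose mean reached 10 RPM, at an adjusted p of 0.05 (Benjamini-Hochberg). Ratios and percents within a library were compared with two-sided exact permutation tests (scipy 1.17.1), adjusted over 21 tests. Each script that fits across rows was tested on simulated data. The labels speak of biological replicates without naming separate transductions, and the p-values rest only on the spread of these samples, possibly technical. Alternatives were pseudocounts of 1 and 100 RPM, other filters, median-of-ratios scaling, shares without the miR-450 rows, limma without trend or with the compared groups only, a replicate block, and each library left out. The named rows were the members, their arms, the cluster neighbours, the 5 rows of most similar pattern, and neighbours in level. Members and lists were chosen with earlier results of these data known. Sequences are from RefSeq (GRCh38.p14), which matched 5 of 5 arms and 2 of 3 hairpins.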

Additional observations from a re-analysis of the deposited data

Results flagged for a closer look

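SV40 miR-S1-3p, a polyomavirus row outside the miR-450 cluster that is among the rows fitted in both tables, averaged 63.8 RPM with the miR-450a vector and stood far above the empty vector libraries, where it did not exceed 0.267 RPM. It lay at no more than 0.501 RPM with the miR-450b vector.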

How the results depend on the processing

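Of 468 values recomputed with another setting, 447 kept their direction and their side of the threshold (for counts of calls, stayed within 1.5 times), and so did 579 of 618 recomputed without 1 library. miR-450b with the miR-450a against the empty vector lost its call with median-of-ratios scaling (0.85 for the mature row, 0.74 for the precursor), and without 1 library it ranged from 1.20 to 1.60. Its cause was not tested. The calls with the miR-450a against the empty vector numbered 341 with no filter, where more rows are tested. With a filter of 100 RPM, where fewer are, the mature calls numbered 137, 38 and 140 in the 3 comparisons and the precursor calls of the last 125. miR-450a-2* with the miR-450a against the miR-450b vector lost its call with median-of-ratios scaling (0.27).

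Differences near 0 changed sign without 1 library. With the miR-450b against the empty vector, miR-450a ranged from -0.15 to 0.29, mir-450a-1 from -0.13 to 0.28, mir-450a-2 from -0.068 to 0.31, miR-450a-1* from -0.012 to 0.16, miR-542 from -0.26 to 0.48, miR-503 from -0.0061 to 0.11, miR-503* from -0.092 to 0.10 and the log2 ratio of miR-450a to its neighbours from -0.078 to 0.48. With the miR-450a against the empty vector, the log2 ratio of miR-450b to its neighbours ranged from -0.26 to 0.31 and the main arm percent of miR-450b from -0.29 to 0.32 points. With the miR-450a against the miR-450b vector, the main arm percent of miR-450a ranged from -1.93 to 1.62 points.

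Same-numbered libraries did not vary together in every pair (correlation of deviations from group means -0.51 to 0.64), so the replicate block is given only here. With it the mature calls numbered 230, 58 and 251 and the precursor calls 175, 52 and 186, and no member's call changed. miR-424 with the miR-450a against the empty vector lost its call (adjusted p = 0.0603), and miR-542* with the miR-450a against the miR-450b vector gained one (adjusted p = 0.0463). Depth is unknown, which limits the rows near 1 RPM, miR-450b* above all.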
